A study of Mus musculus with 6 samples.

Results

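The very broad autosomal islands of ordinary depth are stretches of chromatin of at least 7000 bp that were called as occupied by the histone variant TH2B in mouse male germ cells. They were chosen by a rule that used the deposited values themselves. An island of any of the 3 lists entered when it lay on chromosomes 1 to 19, when its deposited end minus its start was at least 7000 bp, and when both its ChIP count and its control count were below 500 reads. The rule found 1081 islands among the 46507 of all 3 lists. Spermatocytes had 504 of them, round spermatids 506 and wild-type total germ cells 71. They made up 3.37% of the 14956 autosomal islands of spermatocytes, with an exact 95% binomial interval of 3.09% to 3.67%. In round spermatids they were 3.08% of 16447 islands (2.82% to 3.35%), and in wild-type germ cells 0.531% of 13368 islands (0.415% to 0.669%).

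TH2B is a testis form of histone H2B that takes the place of most somatic H2B as germ cells pass through meiosis, and it stays in chromatin until histones give way to transition proteins and protamines. A protein laid down over much of the genome gives shallow enrichment without sharp summits. The program SICER deals with this by scoring short windows and joining those that pass across small gaps, so that a broad weakly enriched stretch becomes a single island. An island is thus a statement about where neighbouring windows passed, and its length depends on the gap and on depth as well as on the protein.

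The study examined TH2B on chromatin before and after the end of meiosis. Spermatocytes (meiotic) and round spermatids (post-meiotic) came from adult Th2b+/tag mice, which carry 1 copy of the gene whose C-terminus is fused to His, Flag and Ha tags, and chromatin was precipitated with an antibody to HA after separation of the cells on a BSA gradient. The third ChIP library came from adult wild-type mice, where total germ cells, a mixture of stages, were precipitated with an anti-TH2B antibody. Each ChIP had 1 library and 1 input, so no value has a replicate and no p-value was computed. All intervals are 95% intervals of counting error only. In the tagged animals the untagged copy of TH2B is not precipitated by the HA antibody. The wild-type list differs from the tagged lists in animals, cells and antibody at the same time, and these cannot be told apart. The treatment protocol speaks of a pooled fraction of both tagged cell types, which was read as pooling within each type, following the cell type given for each sample. If the types were mixed, the comparison of stages would not hold. The wild-type input carries an antibody label but is an input by its title. Both tagged inputs have titles ending in an unexplained 2.

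Most of the bases and ChIP reads in autosomal islands lay outside the very broad ones. The very broad islands covered 4.23 Mb (spermatocytes), 4.22 Mb (round spermatids) and 0.543 Mb (wild-type germ cells). This was 7.44%, 7.03% and 1.47% of the bases in autosomal islands. Their ChIP reads were 111866, 137170 and 23596, or 5.59%, 5.46% and 1.33% of the ChIP reads in autosomal islands. Their control reads were 97345, 111723 and 19264. The limit of 500 reads removed 19 of 523 autosomal islands of sufficient length in spermatocytes, 46 of 552 in round spermatids and 50 of 121 in the wild-type list. The wild-type list thus lost the largest share of its long islands to the read limit, and its set without that limit held 121 islands.

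The lists write their ends differently, and this moves the lower edge of the rule. Ends are the last base in both tagged lists, while in the wild-type list they are 1 base further. Island lengths are whole windows of 200 bp, so the shortest island inside the rule was 7200 bp in the tagged lists and 7000 bp in the wild-type list. A further 75 islands of exactly 7000 bp in spermatocytes and 84 in round spermatids met the limit on reads and fell outside. Positions are given here in mm9 counted from 1. Gene names, exons and base composition of that build were not used here.

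The islands nearest to the edges of the rule were as follows, with 1 on each side of each limit. Several islands tied in length at the length limit. Of the tied islands, the 1 named inside has the lowest start position and the 1 named outside has the highest fold. Their folds are therefore not a comparison across the limit. In spermatocytes the island at chr1:4961001-4968200, of 7200 bp, was just inside with 210 ChIP and 201 control reads and a fold of 1.22. The island at chr3:83449401-83456400, of 7000 bp, was just outside with 202 ChIP and 118 control reads and a fold of 2.0. On the side of the reads, chr3:92062401-92070000 was inside with 433 ChIP and 437 control reads, and chr4:147048401-147058400 was outside with 491 and 510. In round spermatids chr6:58548001-58555600 was inside with 491 ChIP and 406 control reads, and chr8:74322401-74329800 was outside with 500 and 434. Their length neighbours there were chr4:5222201-5229400 of 7200 bp inside, with 214 and 169 reads and a fold of 1.34, and chr13:117311601-117318600 of 7000 bp outside, with 250 and 151 and a fold of 1.75. The 75 and 84 islands of 7000 bp outside had median folds of 1.36 and 1.36. For wild-type cells chr4:146629601-146636600 was inside with 476 and 383 reads, and chr5:96204601-96211600 outside with 513 and 386. There chr13:12937401-12944400 was inside at 7000 bp and chr14:58020001-58026800 outside at 6800 bp with 291 and 196 reads and a fold of 1.50.

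Among themselves the islands were close to the minimum in length. The median was 8000 bp in each tagged list and 7400 bp in the wild-type list, beside 3600, 3400 and 2600 bp among the other autosomal islands. In spermatocytes 277 of 504 were no longer than 8000 bp and 59 reached 10000 bp. In round spermatids these numbers were 304 and 53 of 506, and in the wild-type list 55 and 1 of 71. The longest in spermatocytes was chr13:37091801-37106400, of 14600 bp, with 413 ChIP and 375 control reads and a deposited fold of 1.29. Its interval, which allows for the counting error of both libraries, was 1.12 to 1.49. It was followed by chr15:3515601-3529800 at 14200 bp and chr16:26467201-26481200 at 14000 bp, with folds of 1.29 and 1.29. The longest in round spermatids was chr1:76629601-76645200, of 15600 bp, with 440 and 393 reads and a fold of 1.19 (1.03 to 1.36). Next came chr6:33101401-33116400 and chr5:54804601-54819600, both of 15000 bp, with folds of 1.22 and 1.16. In the wild-type list the longest was chr2:49507201-49517200, of 10000 bp, with 406 and 323 reads and a fold of 1.27 (1.10 to 1.48). Then came chr11:66869201-66878600 of 9400 bp at a fold of 1.19 and chr7:33666401-33675600 of 9200 bp at 1.24.

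**Figure D1:**
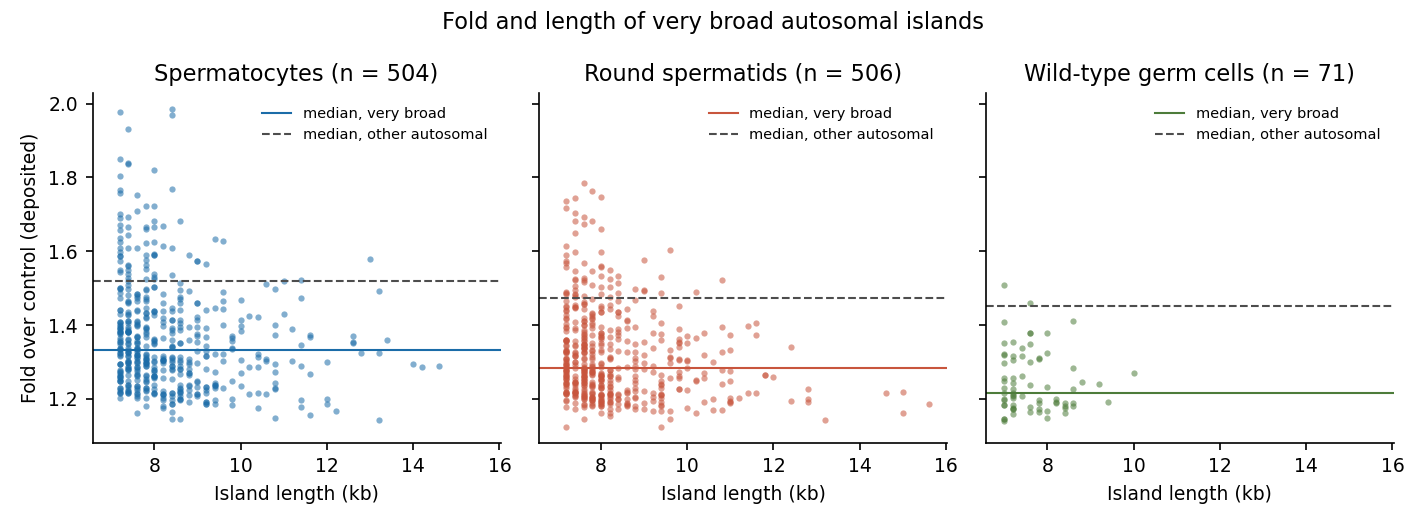
Deposited fold over control against island length in kb for each very broad autosomal island, with 1 point per island and 1 panel per list. The solid line is the median of these islands (1.33, 1.28 and 1.22) and the dashed line that of the other autosomal islands (1.52, 1.47 and 1.45). Points crowd near the minimum length, and most lie under the dashed line.

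Read density was set beside that of the other autosomal islands. Under the rule, median control density was about that of the other islands and median ChIP density was lower. The length and both counts were used in the choice, so these values describe the islands and nothing was tested. In spermatocytes the median island had 25.8 ChIP reads per kb and 22.4 control reads per kb. The other autosomal islands had 29.5 and 22.5. In round spermatids the medians were 31.5 ChIP and 25.6 control reads per kb, beside 35.5 and 25 in the others. For wild-type cells they were 42.2 and 33.9, beside 47.5 and 32.7. The middle 90% of the islands ran from 22.0 to 32.3 ChIP reads per kb in spermatocytes, from 26.7 to 42.5 in round spermatids and from 36.0 to 57.6 in the wild-type list. Without the limit on reads, islands of sufficient length had medians of 26 (spermatocytes), 31.9 (round spermatids) and 47.4 (wild type) ChIP reads per kb. The lower ChIP density of the wild-type list thus depended on that limit. Densities of different lists are not on a common scale, because library totals were not used here.

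**Figure D2:**
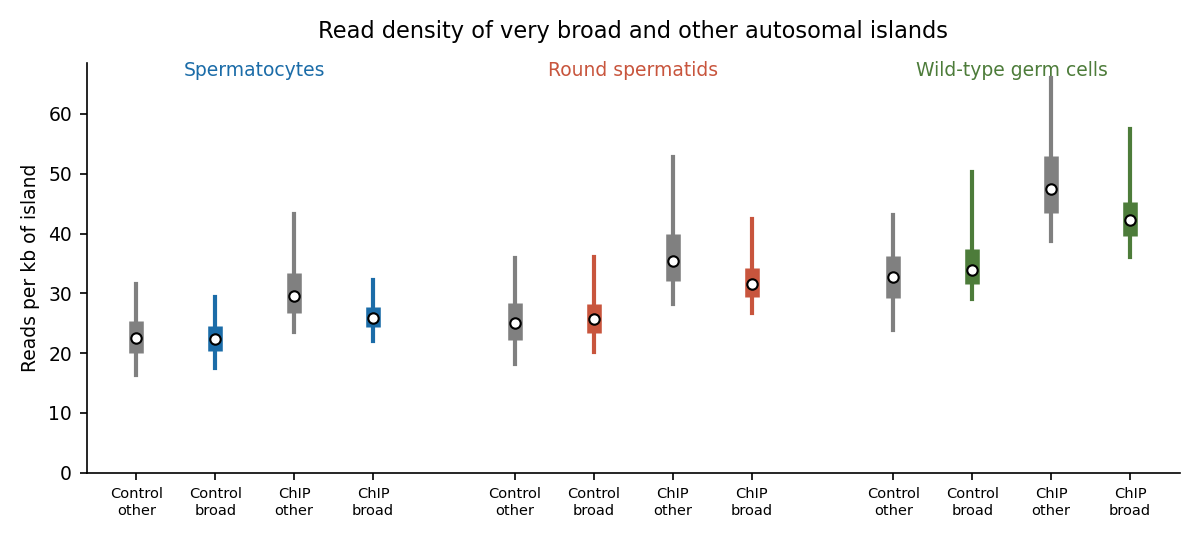
Control and ChIP reads per kb of island for very broad (coloured) and other (grey) autosomal islands in each list. Circles are medians, thick bars the middle 50% and thin lines the middle 90% of islands. The control medians of both classes lie close together (22.4 and 22.5 in spermatocytes), and the ChIP medians of the very broad islands lie lower (25.8 and 29.5).

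The excess of ChIP over scaled control was correspondingly thin. Each list has a single scaling constant between the count ratio and the deposited fold, of 0.854 in spermatocytes, 0.944 in round spermatids and 0.989 in the wild-type list. With it, the median excess was 6.49 reads per kb in spermatocytes against 10.1 in the other islands. It was 7.27 against 11.5 in round spermatids and 8.0 against 14.9 in the wild-type list. The ratio of the ChIP count to the control count, before scaling, had a median of 1.14 in spermatocytes, 1.21 in round spermatids and 1.20 in the wild-type list. The other islands had 1.30, 1.39 and 1.44. In 8 of 504 spermatocyte islands the ChIP count was below the control count, so that only the scaling puts the fold above 1. This was 1.59%, beside 18 of the 14452 other islands (0.125%). No such island occurred among the 506 of round spermatids or the 71 of wild-type germ cells, beside 2 of 15941 and 0 of 13297 other islands.

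Folds were low and narrow in range. The deposited fold had a median of 1.33 in spermatocytes, 1.28 in round spermatids and 1.22 in the wild-type list. Its range was 1.14 to 1.98, 1.12 to 1.79 and 1.14 to 1.51. A fold below 1.25 was found in 114 spermatocyte islands (22.6%), 180 of round spermatids (35.6%) and 45 of wild-type germ cells (63.4%), beside 1.18%, 3.26% and 4.10% of the other islands. A fold of at least 1.5 was found in 76, 43 and 1 (15.1%, 8.50% and 1.41%), beside 53.3%, 45.3% and 41.6% of the other islands. All listed islands had passed an FDR limit, and an island with fewer reads needs a higher fold to pass it. Median ChIP counts were 211, 258 and 322, beside 102, 115 and 119 in the other islands. The gaps in fold, count ratio and excess are thus partly set by the calling, and nothing was read from them. None reached a fold of 2, which 9.1% of all autosomal islands of spermatocytes, 6.6% of round spermatids and 6.25% of wild-type germ cells did. This depends on how ends are written, because 2 of the 75 spermatocyte islands of exactly 7000 bp outside the rule had a fold of at least 2. An FDR of 0.0001 or lower was held by 266 (52.8%), 238 (47.0%) and 26 (36.6%), beside 50.3%, 49.1% and 44.6% of all autosomal islands. Length and counts fix these shares, and nothing was read from them. With the counting error of both libraries, the interval of the fold held 1 in 50 spermatocyte islands (9.92%), 63 of round spermatids (12.5%) and 19 of wild-type germ cells (26.8%). This interval was not taken for the other islands, so these shares do not set the very broad islands apart.

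The 3 islands of highest fold in each list all had fewer control reads per kb than the median of their list. In spermatocytes chr11:40178801-40187200 had 288 ChIP and 170 control reads over 8400 bp and a fold of 1.98 (1.64 to 2.41). The next were chr6:13700001-13707200, with 184 and 109 reads and a fold of 1.98, and chr6:63130201-63138600, with 185 and 110 reads and 1.97. In round spermatids chr14:16449001-16456600 had 214 and 127 reads and a fold of 1.79 (1.43 to 2.24), ahead of chr3:129330401-129338200 at 1.76 with 238 and 143 reads. The third was on chromosome 18 at 1.75. In the wild-type list chr4:103911801-103918800 had 340 and 228 reads and a fold of 1.51 (1.27 to 1.79). It was followed by chr7:23315001-23322600 at 1.46 and chr4:132274601-132283200 at 1.41.

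The 3 islands of lowest fold in each list all had more control reads per kb than that median. In spermatocytes these were chr19:26064201-26077400, with 370 ChIP and 379 control reads and a fold of 1.14 (0.988 to 1.32), chr6:67623401-67631800, with 389 and 398 reads, and chr4:147026601-147035200, with 369 and 377. The second of them held 47.4 control reads per kb, above 2 times the list's median. Round spermatids had chr5:95591801-95599000, with 491 and 463 reads and a fold of 1.12 (0.988 to 1.28), at 64.3 control reads per kb. Next were chr7:23963601-23973000, with 486 and 458 reads, and chr9:28024201-28037400, with 394 and 365. The lowest in the wild-type list was chr13:12937401-12944400, with 423 and 375 reads and a fold of 1.14 (0.990 to 1.31), at 53.6 control reads per kb. Then came chr4:61267801-61274800, with 407 and 359 reads, and chr14:44191201-44198200, with 448 and 395. Across islands the Spearman rank correlation of control reads per kb with fold was -0.71 for spermatocytes, -0.60 for round spermatids and -0.54 for the wild-type list. The control count is the divisor of the fold, so these coefficients share a term and are a description. Length and fold had coefficients of -0.21, -0.20 and -0.07. A control density above 2 times the autosomal median was found in 2 spermatocyte islands (0.397%) and 5 of round spermatids (0.988%), beside 0.989% and 1.38% of the other islands. It was found in 0 of the 71 of wild-type germ cells, where a count of 0 allows a share of up to 5.06% by the exact interval.

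The place of an island was not part of the rule beyond the limit to autosomes. Chromosome 1 stood out in both tagged lists. It held 83 of the 504 spermatocyte islands and 91 of the 506 of round spermatids, or 16.5% and 18.0%, on 7.98% of the autosomal bases. It held 3 of the 71 wild-type islands, or 4.23%. Per Mb this was 0.421 in spermatocytes against 0.185 over the other autosomes, 0.461 against 0.182 in round spermatids, and 0.0152 against 0.0299 in the wild-type list. The ratio of chromosome 1 to the rest was 2.27, 2.53 and 0.509 for the very broad islands. For the other islands of the same lists it was 1.36, 1.61 and 0.849, so islands of any length were denser there in the tagged lists. Within chromosome 1 the very broad islands were 5.16% of autosomal islands in spermatocytes (4.13% to 6.35%) and 4.46% in round spermatids (3.61% to 5.45%). Off chromosome 1 they were 3.15% (2.86% to 3.47%) and 2.88% (2.61% to 3.17%), and the intervals of counting error did not overlap. For wild-type cells the shares were 0.328% (0.0677% to 0.956%) and 0.546% (0.424% to 0.692%), whose intervals overlapped. Neighbouring islands are not independent, and no replicate library was there to give the spread of these shares. Chromosome 1 was the densest autosome in both tagged lists. The gap between its intervals and the rest is that of the most extreme chromosome and is no test. The tagged lists come from animals of the same genotype and the same antibody, and whether their inputs share a preparation is not given in the sources used here.

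**Figure D3:**
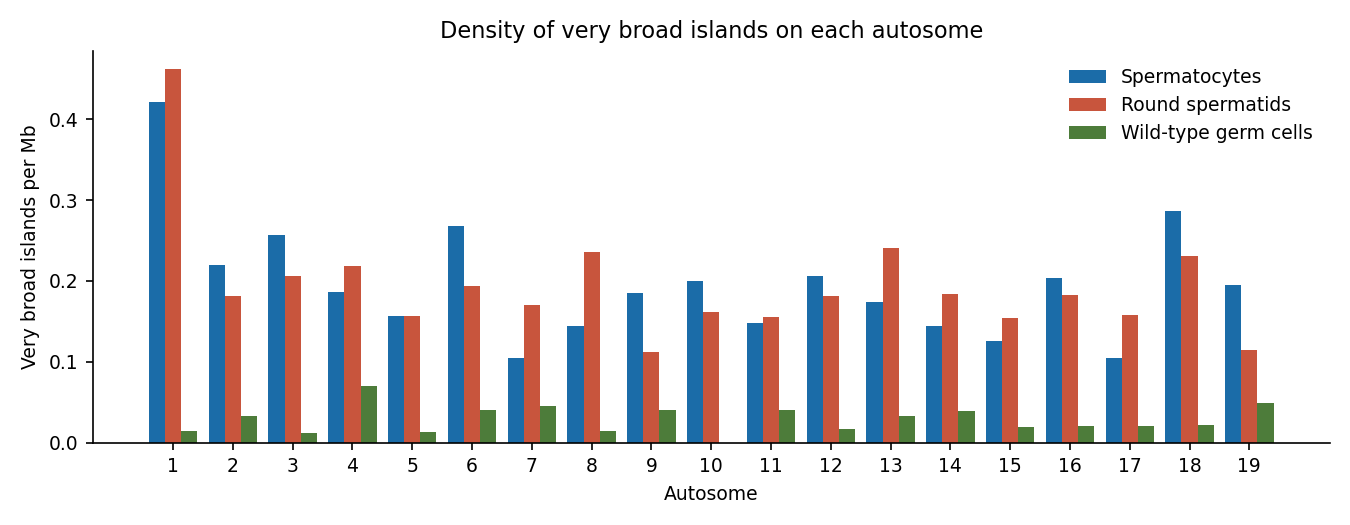
Very broad islands per Mb on each autosome for the 3 lists. Bars start at 0. The bars of chromosome 1 reach 0.421 in spermatocytes and 0.461 in round spermatids, above every other autosome, while the wild-type bar there is 0.0152.

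In the tagged lists the remaining autosomes differed less. After chromosome 1, spermatocyte islands were densest on chromosome 18 (0.286 per Mb), chromosome 6 (0.268) and chromosome 3 (0.257) and sparsest on chromosomes 7 and 17 (0.105 and 0.105). Round spermatid islands were densest on chromosomes 13 (0.241) and 8 (0.235) and sparsest on chromosomes 9 (0.113) and 19 (0.114). In the wild-type list chromosome 4 held 11 of the 71 islands, at 0.0707 per Mb, and chromosome 10 held 0. Over the 19 autosomes the density of very broad islands followed that of the other islands of the same list, with rank correlations of 0.76 in spermatocytes, 0.52 in round spermatids and 0.72 in the wild-type list. Between the tagged lists the coefficient was 0.43 for very broad islands and 0.88 for the others. Between wild-type germ cells and the tagged lists it was -0.22 and -0.19 for very broad islands, and -0.68 and -0.55 for the others. These coefficients are over 19 chromosomes that share libraries and island density, and are a description. The coefficient between the tagged lists was lower for the very broad islands, which are also far fewer per chromosome. Whether their placement differs more between stages than that of the other islands was not tested.

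Every 20% of chromosome length held very broad islands in each list, and no difference from the other islands was tested. In round spermatids 127 of 506 (25.1%, 21.4% to 29.1%) lay in the first 20% of their chromosome, counted from the start of the assembly, beside 19.5% of the other islands. The share of very broad islands was 16.8% between 60% and 80% of the length, beside 20.7%, and 18.0% in the last 20%, beside 16.6%. In spermatocytes 106 of 504 (21.0%) lay in the first 20%, beside 18.3% of the others, and 59 (11.7%, 9.03% to 14.8%) in the last 20%, beside 15.1%. For wild-type cells 22 of 71 lay between 20% and 40% of the chromosome (31.0%, 20.5% to 43.1%), beside 2660 of 13297 of the others. Between 60% and 80% there were 9 (12.7%, 5.96% to 22.7%), beside 21.9%. The fullest 10 Mb stretch in spermatocytes was at 140 to 150 Mb of chromosome 1, with 10 very broad islands among 126. In round spermatids it was at 40 to 50 Mb of chromosome 1, with 10 among 125, and in the wild-type list at 60 to 70 Mb of chromosome 4, with 4 among 49.

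The distance to the nearest island of the same list was compared with that of the other islands, without a test. Another island of the same list lay within 20 kb of 41.7% of those in spermatocytes (37.3% to 46.1%), beside 37.3% of the others (36.5% to 38.1%). It lay within 20 kb of 46.4% in round spermatids (42.0% to 50.9%), beside 40.4%, and of 39.4% in the wild-type list (28.0% to 51.7%), beside 29.0%. The median gap to the nearest island was 26200, 22100 and 40000 bp. At 2 kb the shares were close in the tagged lists, at 5.75% against 5.53% in spermatocytes and 7.11% against 6.54% in round spermatids. In the wild-type list the share was 8.45% (3.16% to 17.5%) against 4.31%, from 6 islands. Another very broad island lay within 100 kb of 46 in spermatocytes (9.13%), 59 in round spermatids (11.7%) and 2 in the wild-type list (2.82%). Within 1000000 bp the shares were 51.6%, 50% and 16.9%. No share for evenly spread islands was computed, so whether these shares are low or high for the density of the islands was not tested.

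The overlap between lists was not used in the choice of the islands. A longer island meets the other list more often for its length alone, so each share is given beside that of the same islands moved by fixed distances of 100 to 1000 kb either way, 20 moves in all, with the other list kept in place. The moves keep the lengths and the chromosome, but the regional density of islands only in part. For round spermatids with spermatocytes, moves of 100 kb gave 14.2% and 13.7%, and moves of 1000 kb gave 9.09% and 7.39%. The ratio to the moved share thus depends on the distance moved. The moves give the share that islands of these lengths meet elsewhere within 1000 kb, and no p-value was made from them. Overlap means at least 1 bp in common with any autosomal island of the other list.

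Between the tagged cell types, a very broad island of 1 stage overlapped an island of the other stage about as much above its moved copies as an island of any length did. In spermatocytes 138 of 504 (27.4%, 23.5% to 31.5%) overlapped an island of round spermatids. The moved islands gave 11.7% on average (8.93% to 18.5%), so the observed share was 2.34 times their mean. Of all autosomal spermatocyte islands 16.6% overlapped, which was 2.48 times the mean after the same moves. In the other direction 131 of 506 round spermatid islands (25.9%, 22.1% to 29.9%) overlapped an island of spermatocytes, against 10.1% after moves (5.53% to 14.2%), a ratio of 2.57. The share over all autosomal islands was 15.1% and its ratio 2.47. In bases, islands of round spermatids covered 12.6% of the very broad spermatocyte islands, beside 3.75% after moves, and spermatocyte islands covered 11.6% of those of round spermatids, beside 3.40%. The higher share of the very broad islands was thus matched by a higher share after moves.

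Overlap with the wild-type list was next counted for each tagged list. Among spermatocyte islands 33 of 504 (6.55%, 4.55% to 9.07%) overlapped a wild-type island, against 5.05% after moves (3.17% to 6.94%). The ratio was 1.30 and 2 of the 20 moves gave as high a share. Over all autosomal spermatocyte islands the share was 4.5% and the ratio 1.62. Among round spermatid islands 60 of 506 (11.9%, 9.17% to 15.0%) overlapped a wild-type island, against 5.57% after moves (4.15% to 7.33%), a ratio of 2.13. Over all autosomal round spermatid islands the share was 4.91% and the ratio 1.64. The intervals of the 2 shares, 4.55% to 9.07% and 9.17% to 15.0%, did not overlap. Those of the ratios to moved islands did, at 0.901 to 1.80 and 1.65 to 2.69. These intervals count islands of single libraries, and the difference between the tagged lists was not tested. The 60 round spermatid islands with a wild-type partner had a median fold of 1.26 and 25.9 control reads per kb, and the 446 without had 1.29 and 25.6.

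From the wild-type side the numbers were small. Of its 71 very broad islands 7 (9.86%) overlapped spermatocytes, against 5.21% after moves (1.41% to 8.45%), and the share over all autosomal wild-type islands was 5.06%. With round spermatids 13 overlapped (18.3%, 10.1% to 29.3%), against 6.77% after moves (0% to 11.3%) and 6.1% over all. With either tagged list 18 overlapped (25.4%, 15.8% to 37.1%), against 10.9% after moves (2.82% to 18.3%) and 10.3% over all. The ratios were 1.89, 2.71 and 2.32, beside 1.62, 1.65 and 1.61 over all autosomal wild-type islands.

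**Figure D4:**
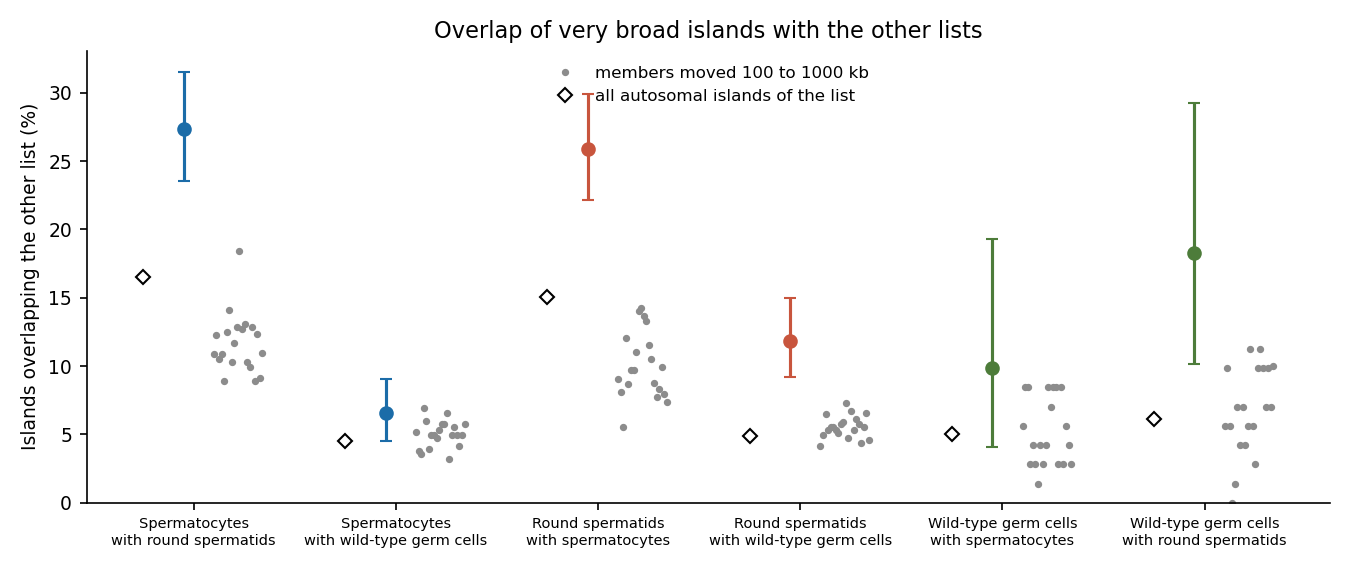
Share of very broad islands that overlap the other list (coloured circles with exact 95% intervals of counting error), the same islands moved by 100 to 1000 kb (20 grey points each), and all autosomal islands of the list in place (open diamonds). Spermatocytes with wild-type germ cells is the pair whose observed share, 6.55%, lies within the range of the moved islands, 3.17% to 6.94%.

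The ratio of observed to moved overlap was also taken by length class, with no test between classes. For spermatocytes with round spermatids it was 3.66 for islands under 2 kb, 2.50 from 2 to 4 kb, 2.33 from 4 to 7 kb and 2.34 for the very broad ones. For round spermatids with spermatocytes it was 2.81, 2.48, 2.38 and 2.57. For spermatocytes with wild-type germ cells it was 2.28, 1.62, 1.57 and 1.30, and for round spermatids with wild-type germ cells 1.59, 1.63, 1.55 and 2.13. From the wild-type side it was 1.75, 1.61, 1.46 and 1.89 with spermatocytes, 1.62, 1.62, 1.72 and 2.71 with round spermatids, and 1.66, 1.58, 1.61 and 2.32 with either. The very broad class had the highest ratio in these 3 series and in that of round spermatids with wild-type germ cells. It rests on 7, 13 and 18 overlapping islands in the wild-type series.

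**Figure D5:**
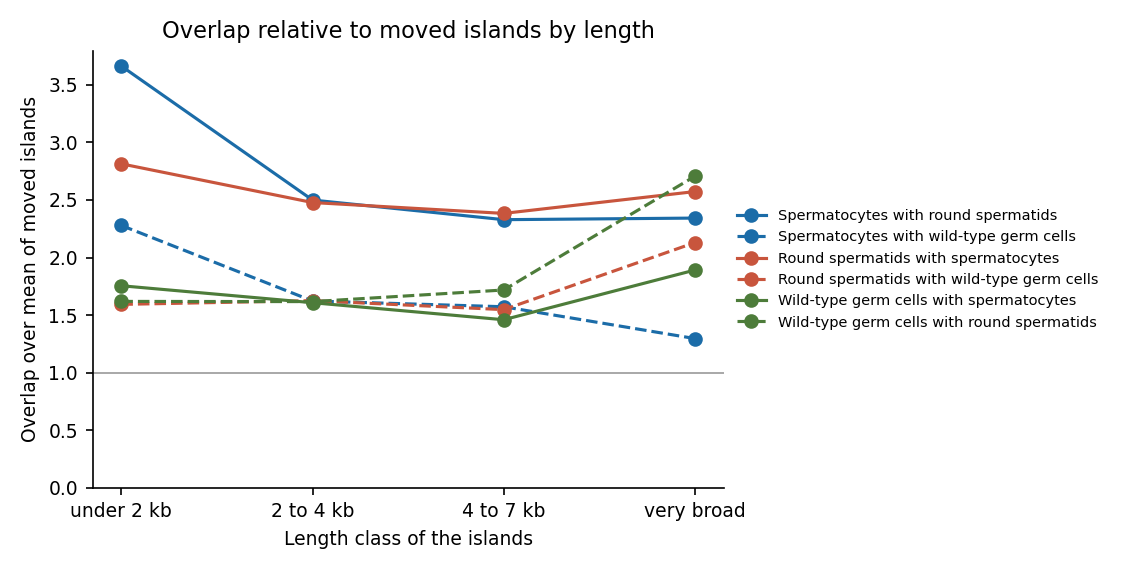
Overlap with the other list divided by the mean overlap of the same islands after 20 fixed moves, for 4 length classes and each direction. The grey line marks 1. The line of spermatocytes with wild-type germ cells goes down from 2.28 to 1.30 with length, and that of round spermatids with wild-type germ cells is highest, at 2.13, for the very broad islands.

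The overlap between tagged lists was also taken apart by control density and by fold. In both lists the share was higher above the median control density, and the part of that density in the overlap was not tested. Spermatocyte islands with control reads per kb above the median overlapped round spermatids in 30.6% (24.9% to 36.6%) and those at or below it in 24.2% (19.1% to 30.0%). The corresponding shares of round spermatid islands with spermatocytes were 29.6% (24.1% to 35.7%) and 22.1% (17.2% to 27.8%). Spermatocyte islands of lower fold overlapped more often, in 31.7% (26.0% to 37.9%), than those of higher fold, in 23.0% (18.0% to 28.7%). In round spermatids the order was the opposite, at 24.1% and 27.7%. All these pairs of intervals overlapped. On chromosome 1, 29 of 83 spermatocyte islands overlapped round spermatids (34.9%) against 16.4% after moves, a ratio of 2.13, and off it 25.9% against 10.8%, a ratio of 2.41. Both the observed and the moved share were higher on chromosome 1.

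The partners of very broad islands were mostly of usual length. The 138 spermatocyte islands met 150 round spermatid islands with a median length of 3800 bp, beside 3580 bp for partners after moves. Of these 150 partners 9 (6%) were themselves very broad, beside a mean of 4.25% after moves (0% to 10.6%). In the other direction there were 139 partners with a median of 4200 bp, beside 3910 bp, and 9 of them were very broad. A stretch inside the rule at 1 stage was therefore seldom inside it at the other.

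The 9 pairs that were very broad in both tagged lists are named here. After moves, 0 to 7 spermatocyte islands met a very broad island of round spermatids. Of the 9, 4 lay on chromosome 1. The largest shared stretch, 7600 bp, was on chromosome 16, where chr16:26467201-26481200 of spermatocytes (fold 1.29) held the whole of chr16:26467801-26475400 of round spermatids (fold 1.20). On chromosome 13, chr13:14670601-14678800 (215 ChIP and 193 control reads, fold 1.30) began at the same base as chr13:14670601-14678000 (223 and 158 reads, fold 1.50). On chromosome 1, chr1:9251801-9260000 (231 and 226 reads, fold 1.20) began at the same base as chr1:9251801-9259000 (272 and 194 reads, fold 1.49). Also on chromosome 1, chr1:118653401-118660600 (fold 1.35) shared 7000 bp with chr1:118653201-118660400 (fold 1.40). On chromosome 8, chr8:22604801-22613000 (fold 1.18) shared 7000 bp with chr8:22606001-22613400 (fold 1.20). On chromosome 13, chr13:39746601-39755200 (fold 1.29) shared 6800 bp with chr13:39748401-39756000 (fold 1.33). The others were chr12:89511001-89519400 (fold 1.16), chr1:48912001-48919200 (fold 1.22) and chr1:145179001-145186800 (fold 1.59), which shared 5800, 5600 and 2600 bp with round spermatid islands of fold 1.15, 1.17 and 1.24. The order of the folds between stages was not the same in all 9, being higher in round spermatids in 5 and in spermatocytes in 4.

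Some partners had been kept out by the rule itself. The spermatocyte island chr3:92062401-92070000 had the same start and end in round spermatids, where 524 ChIP and 429 control reads placed it over the limit of 500. It also had the densest control of the spermatocyte set, at 57.5 reads per kb beside 57.0 ChIP reads per kb. The spermatocyte island chr18:55489001-55496200 lay wholly inside chr18:55481201-55498600 of round spermatids, of 17400 bp, with 530 ChIP and 477 control reads. Such partners are not among the pairs named above, and their number was not counted.

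Very broad islands shared with the wild-type list were fewer. Between round spermatids and wild-type germ cells 2 pairs were very broad in both, with 0 to 1 after moves. At chr3:106098601-106107600 round spermatids had 464 ChIP and 403 control reads (fold 1.22), and the wild-type island chr3:106094801-106103400 had 475 and 404 (fold 1.19), with 4800 bp in common. At chr6:121672201-121680000 they had 278 and 207 reads (fold 1.42), and the wild-type island chr6:121675201-121683000 had 348 and 269 (fold 1.31), also with 4800 bp in common. Spermatocytes and wild-type germ cells had 0 such pairs, with 0 to 2 after moves, and the largest stretch in common with any wild-type island was 5200 bp, at chr15:64666001-64674200. No stretch was very broad in all 3 lists.

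The very broad islands met by both other lists were counted next. The share over all autosomal islands was not taken for this count, so it is set beside the moves alone. In spermatocytes 9 of 504 overlapped an island of each, beside 0 to 8 after moves. In round spermatids 19 of 506 did, beside 0 to 10, and in the wild-type list 2 of 71, beside 0 to 2. Round spermatid islands with a spermatocyte partner overlapped the wild-type list in 19 of 131 (14.5%, 8.96% to 21.7%), and those without in 41 of 375 (10.9%, 7.96% to 14.5%). In spermatocytes these shares were 9 of 138 (6.52%) and 24 of 366 (6.56%). In the wild-type list they were 2 of 7 (28.6%) and 11 of 64 (17.2%) for overlap with round spermatids, with and without a spermatocyte partner. The intervals overlapped in each of these 3 comparisons, and no difference was tested. The largest group was that of islands met by neither list, with 342 in spermatocytes (67.9%), 334 in round spermatids (66.0%) and 53 in the wild-type list (74.6%). Over all autosomal islands the overlap with each other list was less common. It was 16.6% and 4.5% in spermatocytes, 15.1% and 4.91% in round spermatids and 5.06% and 6.1% in the wild-type list. Lack of a partner was thus not particular to the very broad islands. A list holds called islands alone, and reads outside them were not used here, so the lack of a partner does not show that TH2B was missing there.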

How the data were processed

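ChIP-seq of TH2B gave 3 island lists from 6 libraries, 1 ChIP and 1 input in each group. Per the submitters' processing notes, SICER called the islands on mm9. Names of the deposited lists give a 200 bp window and a 600 bp gap. Aligner, read filters and versions: not given in the sources used here. What the 8 headerless columns hold was read from the values. For each island the authors deposited counts of ChIP and control reads, a p-value with its FDR, and a fold, which was checked to be the ratio of both counts divided by 1 constant per list. The control library is not named in the lists and was assumed to be the matching input. Blank lines (2 in spermatocytes, 3 in round spermatids) were skipped. Every island had an FDR below 0.00999.

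Inside islands there were 2375595 ChIP and 1966489 control reads for spermatocytes, 3061563 and 2400549 for round spermatids, and 1872812 and 1333472 for wild-type germ cells. Reads are not independent molecules, so intervals cover counting error only. Reads per kb, shares with exact Clopper-Pearson intervals, rank correlations and overlaps were computed in Python 3.11.15 (scipy 1.17.1, pandas 2.3.3, numpy 2.4.6), with matplotlib 3.10.9 for plots. The interval of a fold is the exact binomial interval of ChIP reads among ChIP and control reads, turned into a ratio and divided by the constant. Moved islands that left the chromosome were dropped, with mm9 lengths from GenomeInfoDb 1.38.1. The overlap count was tested on simulated data.

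The islands, the lists and the comparisons were chosen with earlier results of these data known. The islands named are, in each list, the 3 longest, the 3 of highest and the 3 of lowest fold, those at the edges of the rule and those very broad in 2 lists. The islands singled out because their partners exceeded the read limit were chosen after their values were seen. Planned counts of genes, exons and base composition were not made, because no genome of the build was used here.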

Additional observations from a re-analysis of the deposited data

How the results depend on the processing

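Of 127 alternative values, 77 moved by less than the counting error or the allowed factor of 1.5 for numbers of islands, 49 moved by more and 1 changed direction. The ratio of observed overlap to moved islands stayed above 1 in 38 of 39 alternatives. The exception was spermatocytes with wild-type germ cells, at 0.741 with a minimum of 10000 bp. That minimum, taken as end minus start like the rule, left 52 spermatocyte, 46 round spermatid and 1 wild-type islands, and no overlap of the single wild-type island was computed. Median folds were then 1.30, 1.25 and 1.27, and ChIP reads per kb 30.6 (round spermatids) and 40.6 (wild type). An FDR of 0.0001 or lower left 266, 238 and 26 islands with median folds of 1.43, 1.39 and 1.32. A limit of 250 reads left 215 round spermatid and 2 wild-type islands. No limit on reads gave 121 wild-type islands, with a median fold of 1.19 and 47.4 ChIP reads per kb. The plain ratio of counts had medians of 1.14 and 1.21 in spermatocytes and round spermatids.

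The share of spermatocyte islands overlapping round spermatids was 8.73% with at least 50% reciprocal overlap, 1.79% with very broad partners only, 13.9% at the strict FDR in both lists and 36.5% at 10000 bp. The reverse shares were 9.49%, 1.78%, 12.6% and 21.7%. For round spermatids with wild-type germ cells they were 1.38%, 0.395%, 5.04% and 17.4%. For wild-type germ cells with either tagged list the first 3 were 7.04%, 2.82% and 11.5%. Moves of 20 to 200 kb gave ratios of 1.94 for spermatocytes with round spermatids and 2.0 for the reverse, and moves of 2 to 20 Mb gave 3.16 and 3.44. The reverse ratio was 1.96 at 10000 bp. The cause of these changes was not tested. An equal minimum length in all lists and leaving out chromosome 1 were added after seeing the data. No paired analysis was possible because each group has 1 library.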
